A study of Mus musculus with 12 samples.

Results

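The m6A landscape of control mouse skin was read as the enrichment of each gene in libraries made with an antibody against N6-methyladenosine (IP) over the input library of the same skin sample. The 3 control samples gave 6 libraries, and each IP library was paired with its own input by sample number. Of the 49492 genes in the count table, 25022 had enough reads to be tested. The wider study holds 3 further samples of UV-exposed skin treated the same way, 12 libraries in all, and its title names the m6A writer subunit KIAA1429 (Virma) and the elastic fibre glycoprotein MFAP4 in photoaging. Control skin carried no label of treatment other than being the control, and no genotype, strain, age, sex or body site was given for either group. The kind, dose and timing of UV were likewise not given. Nothing in the labels says whether samples of a group came from separate animals. The p-values measure how far the IP over input ratio within a sample varies between these samples, with the UV samples sharing in that estimate.

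N6-methyladenosine is set on nascent mRNA by a nuclear complex of the METTL3-METTL14 pair with WTAP, VIRMA, ZC3H13, CBLL1 and RBM15, mostly at a short motif with GGAC as its commonest core. It is known to collect around stop codons and in long internal exons, and to be sparse near splice junctions. YTHDF and YTHDC proteins read it, and many methylated messages are short-lived.

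The input libraries were those of whole skin. Keratin 14 of basal keratinocytes measured 3015, 1614 and 5250 CPM (read counts over library size, scaled with TMM, a factor that aligns the typical gene) in the 3 control inputs, and Col1a1 of fibroblasts 3765, 3724 and 3109. The hair follicle marker Tchh measured 45777, 59898 and 27924 CPM and the skeletal muscle marker Myh4 2336, 5585 and 2505 CPM. The liver gene Alb stayed at or under 0.166 CPM, and the neutrophil markers Ly6g, Retnlg and S100a8 at or under 0.0335, 0.534 and 3.46 CPM. Input of sample 2 was thus lower in Krt14, Krt1 and Flg and higher in Tchh and Myh4 than the other inputs. In whole skin, fewer cells of a type and less RNA per cell cannot be told apart. Libraries held 24126662 to 59732603 reads in genes. Ratios below are within a sample and relative: log2 IP over input of 0 stands near the typical gene, not for an absence of m6A.

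Of the genes tested, 7516 (30.0%) were enriched and 7782 (31.1%) were depleted in IP over input at an adjusted p below 0.05 (edgeR's quasi-likelihood test with the sample as a block, Benjamini-Hochberg over all genes). These are the shares against which each group below was read. Low genes are called less often, and over the 11862 genes with at least 5 CPM in input the shares were 41.4% and 39.7%, the nearer background for lists of abundant genes. The collagen and desmosome lists, each 40.9% depleted, lay close to it in that share. Their enriched shares of 27.3% and 31.8% were lower. The median log2 IP over input was -0.04 over all genes, and -0.02, -0.01 and -0.05 in the 3 pairs. Scaled by library size alone, all values moved by -0.25 and the split became 5100 enriched to 10703 depleted, so that 32.3% of calls were enrichments in place of 49.1%. At least 2-fold enrichment was called for 2071 genes and at least 2-fold depletion for 2865. The same fit gave a median of -0.01 in UV-exposed skin, and 399 genes (1.59%) differed between UV and control in the test of that difference.

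The lowest transcript classes lay further from the median of all genes than any list of protein-coding genes described below. Small nucleolar RNAs, which guide the modification of ribosomal RNA, were depleted in 183 of 216 genes tested and enriched in 3, with a median log2 of -2.82 against -0.04 over all genes. The class medians in the 3 samples were -2.46, -2.47 and -2.65. Genes that RefSeq classes as snRNA, mostly spliceosomal but with U3 and 7SK genes among them, were depleted in 96 of 167 cases (median -1.18), and scaRNAs, the guides of Cajal bodies, in 19 of 24 (median -1.39). Pseudogenes were depleted in 945 of 2084 genes and enriched in 256 (median -0.72). The median of long noncoding RNAs, by contrast, was 0.12, with 387 of 1549 genes enriched and 267 depleted. Both of these shares lay below those over all genes (30.0% and 31.1%). The median input of this class was 0.995 CPM, against 4.24 CPM over all genes. Protein-coding genes were enriched in 5921 of 16003 and depleted in 4748 (median 0.06). The 4437 genes tested with no match in the annotation had a median of -0.25.

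**Figure D1:**
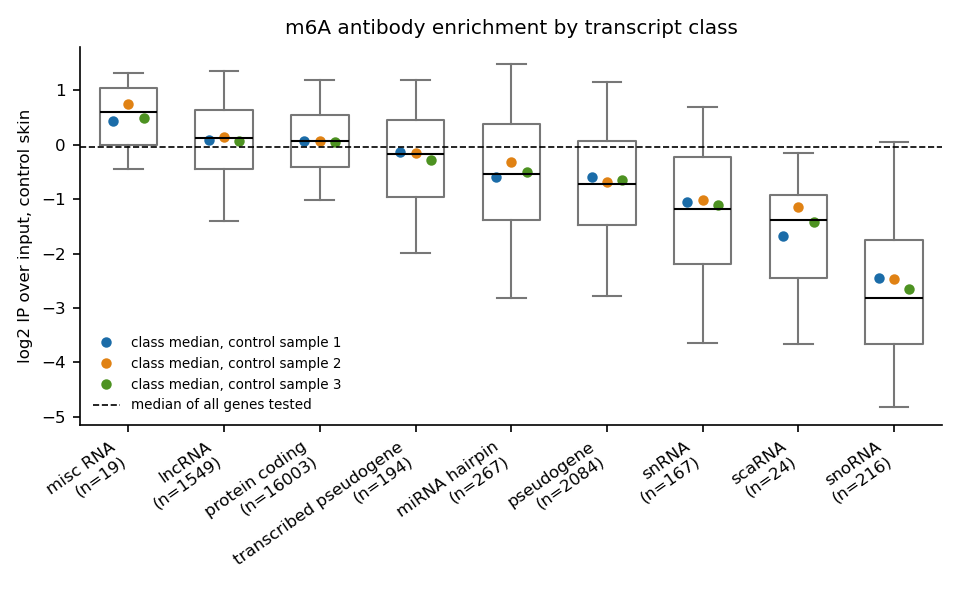
Log2 IP over input in control skin by transcript class. Boxes run from the lower to the upper quartile with the median as a line, whiskers run from the 5th to the 95th percentile, and dots are class medians in each control sample. The snoRNA class sits lowest, with sample medians of -2.46, -2.47 and -2.65, and the protein-coding and lncRNA medians lie near the dashed median of all genes.

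The most depleted genes named by the rule were nearly all structural RNAs. Snord110, a box C/D snoRNA (chromosome 2, 130275506 to 130275573, GRCm38), measured 23.1, 104 and 50.7 CPM in input and 0.623, 2.68 and 1.44 CPM in IP. No IP library reached the lowest input, and the log2 IP over input was -5.23 (SE 0.09, adjusted p = 2.49e-20). Snora73a (chromosome 4, 132352775 to 132352979) measured 78.1, 83.6 and 122.9 CPM in input and 3.74, 4.27 and 4.15 CPM in IP. Its log2 IP over input was -4.48 (SE 0.09, adjusted p = 2.96e-19). Snord38a, Snora24, Snord14e and Snora57 had log2 values from -5.90 to -5.32, but each measured under 0.5 CPM in every IP library, so these sizes rest on few reads. Rnu12, the U12 RNA of the minor spliceosome, measured 209, 393 and 439 CPM in input and 17.03, 31.13 and 34.73 CPM in IP, a log2 of -3.64 (SE 0.05, adjusted p = 4.19e-21). Rnu5g, a U5 RNA, had -4.19 (SE 0.13) in control and -3.02 in UV, a difference of 1.17 (adjusted p = 0.00361). AC121821.1 and AC154540.1, which the annotation did not match, had -4.48 and -4.11. Their coordinates overlap Snora74a (-4.47) and Snora81 (-4.15), so they are not separate observations.

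Of 117 snoRNA and scaRNA genes with a family name, 106 were depleted, and 2 had a log2 above 0, the highest 0.08 (median -3.0, against 31.1% depleted over all genes). Of 22 other structural RNAs, 20 were depleted and all had a log2 below 0 (median -2.22), among them the U3 genes Rnu3a (-3.37) and Rnu3b4 (-3.26). In UV the medians of these lists were -2.38 and -1.47.

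**Figure D2:**
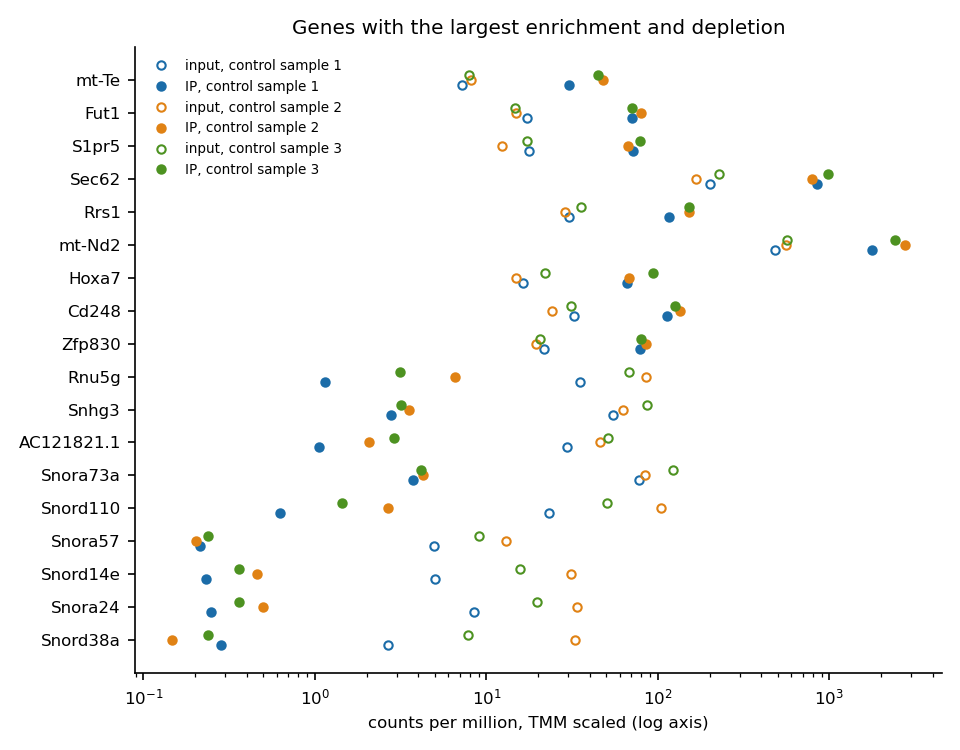
Expression of 18 genes with the largest enrichment or depletion, 9 in each direction, in CPM on a log axis, open circles for input and filled circles for IP, coloured by control sample. In each of the 9 upper genes every IP library lies above every input, and in each of the 9 lower genes below; Fut1 and Snord110 show the shift in either direction.

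Several genes share exon bases with a small RNA gene, and reads there can be counted to either. Of 13 lncRNA genes whose listed exons overlapped a small structural RNA gene, 12 were depleted (median -1.74), while the other 1536 lncRNA genes had a median of 0.14 with 387 enriched and 255 depleted. Snhg3, the host transcript of Snora73a, measured 55.0, 62.2 and 86.1 CPM in input and 2.78, 3.54 and 3.19 CPM in IP, a log2 of -4.35 (SE 0.09, adjusted p = 5.15e-19), next to -4.48 for the snoRNA itself. Snora73a overlapped the listed exons of Snhg3, which had 986 merged bases. Snhg4 (-3.03, with Snora74a), Dancr (-2.98, with Snora26), Snhg8 (-2.76, with Snora24) and Gm24105 (-3.94) completed the lncRNA genes named as depleted. Snhg12 at -2.43 overlapped 3 snoRNA genes. Snhg1 (-1.53) and Gas5 (-1.14), host genes that each overlapped 1 snoRNA, were depleted too. Snhg17, with no snoRNA overlap listed, measured -1.40. Snhg20 measured -1.52 and shares exon bases with Mir6516, which had -1.71. In UV the log2 was higher by 1.03 for Snhg12 (adjusted p = 0.000508), by 0.53 for Snhg1 (0.000293) and by 0.39 for Gas5 (0.00245). Among protein-coding genes, 38 overlapped a small structural RNA gene (miRNA genes not counted) and 26 of them were depleted (median -0.55), against 4722 of the other 15965 (median 0.06). These 2 groups differ in more than overlap: their median input was 137 and 10.6 CPM. Of the 38, 16 were ribosomal protein genes, with 11 depleted, beside 45 of the 62 ribosomal protein genes without such overlap. An effect of overlap apart from level and gene family was not tested. Ccdc107, which overlaps the RNase MRP RNA gene Rmrp, was the lowest of the 38 at -2.52, a name chosen after its value was seen.

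The most enriched lncRNA genes that the rule named were 1700084E18Rik (log2 1.82), Irx3os (1.76), Gm16136 (1.53), Gm43305 (1.47) and Bach2os (1.47). Irx3os, an antisense transcript of the Irx3 locus, measured 13.6, 10.3 and 18.3 CPM in input and 44.9, 37.1 and 60.6 CPM in IP (SE 0.06, adjusted p = 6.73e-16). Malat1, an abundant nuclear RNA long known to carry m6A, measured 25413, 26908 and 25267 CPM in input and 51620, 52463 and 51099 CPM in IP. The IP values lay close together and above every input, with a log2 of 1.00 (SE 0.03, adjusted p = 3.64e-17), and the deposited table listed no control-arm peak in Malat1.

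Many microRNA genes lie in exons of other genes. Of 267 miRNA genes tested, 32 were enriched and 74 depleted (median -0.54), and only 64 reached 1 CPM in input. The enriched and the depleted share both lay below those over all genes (30.0% and 31.1%). In 5 miRNA genes most of the hairpin lay in the exon of a small structural RNA, and all 5 were depleted (median -2.54). Hairpins are shown for a pair of these loci and for an enriched one in a protein-coding exon. The sequences are RefSeq's on GRCm38.p6, on the transcribed strand, with any GGAC in capitals.
Mir1291: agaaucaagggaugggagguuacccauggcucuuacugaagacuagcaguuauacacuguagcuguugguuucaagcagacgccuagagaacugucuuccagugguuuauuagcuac
Mir3069: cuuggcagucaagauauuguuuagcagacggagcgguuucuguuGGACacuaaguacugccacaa
Mir7654: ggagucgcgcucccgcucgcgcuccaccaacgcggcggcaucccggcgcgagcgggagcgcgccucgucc
Mir1291 (chr15:98519762-98519878, minus strand) overlapped the snoRNA gene Snora34, and had log2 -4.07 with 9.55 CPM in input beside -4.11 and 9.57 CPM for Snora34. Mir3069 (chr12:105031077-105031141, minus strand), the only hairpin of the 3 with a GGAC, lay mostly within Scarna13 and had log2 -2.91 beside -2.57 for Scarna13. Mir7654 (chr8:8690093-8690162, minus strand) lay in an exon of the protein-coding gene Arglu1 and was enriched at 1.02 beside 0.84 for Arglu1. These 3 hairpins were chosen after their values were seen. GGAC was found in 69 of the 222 tested hairpins that had a sequence, and in 24.5% of all 1005 hairpins in the table. The median log2 was -0.41 with the motif and -0.50 without it. The motif was searched on the transcribed strand only.

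Among messenger RNAs the largest enrichment was shared by genes of unlike function. Sec62, a subunit of the protein translocation channel of the endoplasmic reticulum (chromosome 3, 30792875 to 30821263), measured 201, 167 and 229 CPM in input and 848, 794 and 980 CPM in IP, a log2 of 2.14 (SE 0.04, adjusted p = 3.24e-19). Fut1, a fucosyltransferase of blood group H antigen (chromosome 7, 45617289 to 45621059), measured 17.1, 14.9 and 14.6 CPM in input and 70.5, 80.0 and 70.2 CPM in IP, a log2 of 2.23 (SE 0.07, adjusted p = 1.49e-16). S1pr5, a sphingosine-1-phosphate receptor, had a log2 of 2.19, and Rrs1, a ribosome assembly factor, 2.13. Cd248, the endosialin of pericytes and fibroblasts, had 2.07, and the zinc finger gene Zfp830 1.97. In all of these the IP values exceeded every input value in all 3 samples. Their UV values ran from 1.79 for Zfp830 to 2.17 for Fut1, and none of these 6 differed between UV and control in the test of that difference.

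Transcription factors were among the lists with the highest shares enriched. Of 29 Hox genes, which pattern the body axis and keep positional identity in skin fibroblasts, 22 were enriched and 28 had a log2 above 0 (median 0.91, against 30.0% enriched over all genes). Hoxa7 measured 16.4, 14.9 and 22.1 CPM in input and 65.7, 67.6 and 93.9 CPM in IP, a log2 of 2.08 (SE 0.05, adjusted p = 2.7e-17). Hoxb7, Hoxc8 and Hoxb8 had 1.97, 1.96 and 1.90. Of 42 ZBTB factors, which join a BTB domain to zinc fingers, 36 were enriched and 1 depleted (median 0.86), among them Zbtb9 at 1.80, Zbtb18 at 1.74, Zbtb7b at 1.51 and Zbtb7a at 1.30. Of 344 Zfp genes, 244 were enriched and 18 depleted (median 0.61). Zfp503 had 1.84, Zfp646 1.53 with 10 control-arm peaks, and Zfp609 1.33.

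Sox, Klf and Fox factors were enriched in 41 of 59 genes and depleted in 4 (median 0.65). Sox4, a factor of progenitor cells, measured 68.4, 70.2 and 60.3 CPM in input and 254, 276 and 215 CPM in IP (log2 1.90, SE 0.05, adjusted p = 6.14e-18). Klf4, needed for the epidermal barrier, had 1.36, Foxn3 1.25 and Sox21, expressed in the hair cuticle, 1.51. Immediate early genes, switched on within minutes of a stimulus, were enriched in 18 of 22 genes, and 21 had a log2 above 0 (median 0.68). Egr1 had 1.76, Ier5 1.66, Jun 1.54 and Ier2 1.37, and Jun measured 94.5, 68.3 and 81.5 CPM in input and 244, 231 and 232 CPM in IP.

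Feedback inhibitors, Wnt and Notch genes and chromatin modifiers lay on the same side, and TGF-beta, BMP and receptor genes less so. Over all genes 30.0% were enriched and 31.1% depleted, and over those with at least 5 CPM in input 41.4% and 39.7%. Feedback inhibitors of growth factor and cytokine signalling were enriched in 19 of 29 genes and depleted in 4 (median 0.41), with the Sprouty genes Spry2 at 1.49 and Spry1 at 1.27, Socs6 at 1.23 and Smad7 at 1.03. Of 43 Wnt and Notch genes 27 were enriched and 5 depleted (median 0.35), among them the Wnt receptors Fzd7 (1.66) and Fzd10 (1.16), the Notch ligand Jag1 (0.84) and the coactivator Maml2 (1.30). TGF-beta and BMP genes held 13 enriched and 7 depleted of 26 (median 0.16), from Smad1 at 1.33, Bmp2 at 1.21 and Skil at 0.98 to Ltbp4, which anchors latent TGF-beta in the matrix, at -1.13. Chromatin modifiers were enriched in 35 of 42 genes and depleted in 3 (median 0.54). Arid1a of the SWI/SNF remodeller measured 178, 174 and 158 CPM in input and 460, 524 and 441 CPM in IP (log2 1.48, SE 0.04, adjusted p = 2e-16). Tet3 had 0.92 and Kdm5a 0.88. Receptors named Gpr or Adgr were spread more evenly, with 29 enriched and 20 depleted of 78 (median 0.16, range -1.80 to 2.28). The named members were Gpr162 at 1.12, Adgra3 at 0.86 and the macrophage receptor Adgre1 at -1.69. With library size alone the medians of the TGF-beta and receptor lists became -0.10 and -0.09.

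Genes of the m6A machinery lay in both directions. Of 23 writer, reader and eraser genes 11 (47.8%) were enriched and 5 (21.7%) depleted (median 0.16, which became -0.09 with library size alone). Over genes with at least 5 CPM in input the shares were 41.4% and 39.7%. The writer adaptors Rbm15b and Rbm15 had log2 values of 1.52 and 1.25, and Zc3h13, a scaffold of the writer complex, 1.41. Zc3h13 measured 263, 285 and 279 CPM in input and 668, 811 and 716 CPM in IP. Virma, listed as 1110037F02Rik, measured 77.1, 91.1 and 83.8 CPM in input and 150, 137 and 148 CPM in IP, a log2 of 0.79 (SE 0.06, adjusted p = 1.14e-10). Its IP values lay above all inputs, its 2 control-arm peaks fell in internal exons, and its UV value of 0.54 did not pass the test of that difference (-0.25, SE 0.08, adjusted p = 0.151). The nuclear reader Ythdc1 had 1.10. The catalytic subunit Mettl3 and both erasers, named after their values were seen, were depleted, with Mettl3 at -0.20, Alkbh5 at -0.24 and Fto at -0.49.

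Genes of basic metabolism and protein synthesis were mostly depleted. All 15 glycolytic genes had a log2 below 0 and 13 were depleted (median -0.68). Aldoa, the aldolase of muscle and many other tissues, measured 353, 476 and 461 CPM in input and 144, 237 and 192 CPM in IP, a log2 of -1.19 (SE 0.05, adjusted p = 1.82e-14). Ldha had -1.13, Pfkl -1.07 and Eno1 -1.06. Cytoplasmic ribosomal protein genes were depleted in 56 of 78 and enriched in 9 (median -0.45). Rpl10 measured 73.3, 79.2 and 87.1 CPM in input and 21.14, 23.99 and 26.75 CPM in IP (log2 -1.74, SE 0.06, adjusted p = 3.98e-16), with an exon overlapping Snora70. Rps7 had -1.42, Rplp2 -1.39 and Rplp1 -1.29. The 62 ribosomal protein genes with no small RNA in their exons had a median of -0.44, with 45 depleted and 7 enriched. Pseudogenes named after ribosomal proteins were lower, with 121 of 182 depleted and a median of -0.98, and reads can be split between such near-identical copies.

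Nuclear genes of the respiratory chain were depleted in 54 of 89 and enriched in 18 (median -0.40). Atp5a1 at -0.98 stood against Cox7a2l at 1.64 and Ndufa12 at 1.55. Proteasome genes showed the same division, with 23 of 41 depleted and 9 enriched (median -0.16), from Psmb4 at -1.54 and Psme4 at -1.26 to Psma4 at 1.14 and Psmd7 at 1.15. Aminoacyl-tRNA synthetases held 12 depleted and 5 enriched of 20 (median -0.21), with Mars at -0.84, Iars at -0.76, Dars at -0.71 and Sars at 0.46. Cytosolic chaperones held 10 depleted and 8 enriched of 19 (median -0.34). The chaperonin subunit Tcp1 had -1.40, while the heat-shock genes Hspa1a (1.17), Hspa1b (0.98) and Hsp90ab1 (0.91) were enriched. Translation factors held 35 depleted and 26 enriched of 70 (median -0.17), and the members with the smallest p were all enriched, with Eif1a at 1.69, Eif3a at 1.31, Eif5b at 1.28 and Eif2s2 at 1.06. Mitochondrial ribosomal protein genes were near the background, with 33 enriched and 25 depleted of 81 (median 0.05, or -0.20 with library size alone). The members named by p were Mrpl16 (1.26), Mrpl41 (1.21), Mrps26 (1.04) and Mrpl19 (0.92), and the lowest entry, Mrpl48-ps at -1.46, is by its name a pseudogene.

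**Figure D3:**
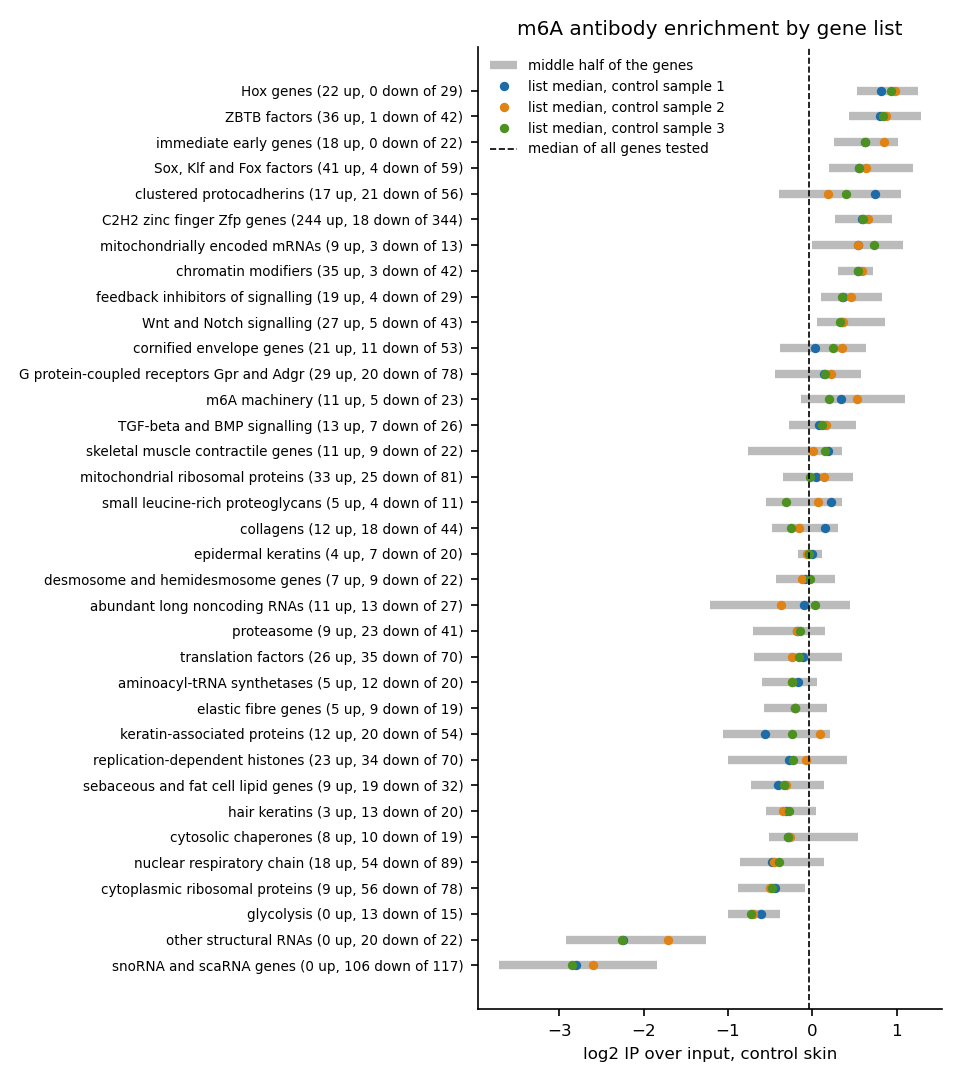
Log2 IP over input in control skin for 35 gene lists, ordered by median. Grey bars run from the lower to the upper quartile, dots are the list median in each control sample and the dashed line is the median of all genes tested. Labels count enriched genes as up and depleted genes as down; Hox genes lie highest and snoRNA genes lowest.

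The mRNAs of the mitochondrial genome, transcribed as long shared precursors, did not move together. Of 13, 9 were enriched and 3 depleted (median 0.60). mt-Nd2 measured 482, 561 and 565 CPM in input and 1763, 2773 and 2406 CPM in IP, a log2 of 2.09 (SE 0.05, adjusted p = 2.36e-17). mt-Nd6 had 1.43 and mt-Nd4l 1.04. mt-Co1 measured 578, 699 and 629 CPM in input and 252, 378 and 320 CPM in IP, a log2 of -1.02 (SE 0.05, adjusted p = 3.85e-13). Mitochondrial tRNA genes were depleted in 14 of 18 and enriched in 3, yet mt-Te of 69 bases was the most enriched gene that the rule named. It measured 7.23, 8.08 and 7.88 CPM in input and 30.1, 47.9 and 44.5 CPM in IP (log2 2.36, SE 0.08, adjusted p = 2.23e-15), and 3.14 in UV, a difference of 0.78 (adjusted p = 0.00145). Whether the counts used strand is not given, mt-Te lies beside other mitochondrial genes, and nuclear copies of mitochondrial sequence can take reads.

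Replication-dependent histone genes, single-exon genes whose mRNAs end in a stem-loop in place of a poly(A) tail, held 23 enriched and 34 depleted of 70 (median -0.26). The counts by histone type, whose differences were not tested, were as follows. H1 genes were enriched in 4 of 6 (median 0.64) and H2A genes in 11 of 20 (median 0.23). H2B genes were depleted in 12 of 19 (median -0.81) and H3 genes in 10 of 12 (median -0.75), while H4 genes held 7 depleted and 5 enriched of 13. Hist1h1e measured 222, 246 and 293 CPM in input and 616, 612 and 785 CPM in IP (log2 1.40, SE 0.04, adjusted p = 1.65e-16), and Hist1h2ak had 1.35. Hist1h4h measured 34.2, 27.6 and 35.2 CPM in input and 2.37, 4.57 and 3.15 CPM in IP (log2 -3.26, SE 0.15, adjusted p = 9.06e-14), and Hist1h4m had -2.16. Copies of 1 histone type share much sequence, so reads can be split among them.

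The structural genes of skin were not a uniform group. Cornified envelope genes held 21 enriched (39.6%) and 11 depleted (20.8%) of 53 (median 0.18, which became -0.05 with library size alone). Over genes with at least 5 CPM in input the shares were 41.4% enriched and 39.7% depleted. Tchh, the trichohyalin of the inner root sheath, took 5.3% to 12.2% of all IP reads and 2.91% to 6.97% of input reads, a log2 of 1.06 (SE 0.03, adjusted p = 2.33e-17, and 0.0532 without the sample block or 0.07 in DESeq2). Its level followed the sample, and its pair values of 1.01, 1.10 and 1.07 did not. Flg, the filaggrin precursor of the granular layer, had 1.12, Tchhl1 1.27 and the envelope scaffold Ppl 1.10. Hair keratins were depleted in 13 of 20 genes and enriched in 3 (median -0.30), with Krt34 at -0.93, Krt35 at -0.69, Krt31 at -0.58 and Krt26 at 0.49. Epidermal keratins held 7 depleted and 4 enriched of 20 (median -0.06). Krt17 had -0.71 and Krt75 -0.67, Krt1 -0.40 and Krt78 0.68. Keratin-associated protein genes, single-exon genes of the hair shaft, held 20 depleted and 12 enriched of 54, and their median changed sign between samples (-0.56, 0.08 and -0.24), with Krtap6-2 at -1.92, Krtap22-2 at -1.61, Krtap21-1 at -1.16 and Krtap3-2 at 1.28. Desmosome and hemidesmosome genes held 7 enriched and 9 depleted of 22 (median -0.08), with the linker proteins Plec (1.06, 11 control-arm peaks) and Dsp (0.71) opposite Perp (-0.80) and the laminin Lama5 (-1.22). Without the sample block Tchhl1, Krt34, Krt35, Krt31, Krt26, Krt75, Krt1, Krt78, Krtap6-2 and Krtap21-1 were no longer called (adjusted p = 0.0501 to 0.614).

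In the dermal matrix, collagen genes held 18 depleted and 12 enriched of 44, with a median of -0.04 that changed sign between samples (0.15, -0.16 and -0.25). The members named by p, which had to be called, were fibrillar collagens, and each was depleted. Col1a1 measured 3765, 3724 and 3109 CPM in input and 1621, 2221 and 1385 CPM in IP, a log2 of -1.04 (SE 0.06, adjusted p = 2.1e-12). Col1a2 had -1.10, Col3a1 -0.71 and Col5a2 -0.57. Among small leucine-rich proteoglycans, which bind collagen fibrils, 5 were enriched and 4 depleted of 11. Dcn had -0.72, Aspn -1.13, Ogn -0.93 and Bgn -0.36. The enriched members, added after their values were seen, were Lum (0.33), Fmod (0.34), Prelp (0.37), Podn (0.48) and Kera (0.84). Elastic fibre genes held 9 depleted and 5 enriched of 19 (median -0.23), with Emilin1 at 1.40 and Mfap3 at 0.64 opposite Fbn1 at -0.65 and Fbln1 at -1.26. Mfap4 measured 16.3, 13.4 and 12.3 CPM in input and 13.97, 11.17 and 9.501 CPM in IP. Its IP and input values overlapped between samples, while each pair was negative (-0.23, -0.26 and -0.38), and the log2 was -0.28 (SE 0.08, adjusted p = 0.0053, and 0.306 without the sample block). In UV it was 0.09, and the difference of 0.37 did not pass the test (adjusted p = 0.146).

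Muscle and fat of the skin were measured as well. Skeletal muscle genes held 11 enriched and 9 depleted of 22 (median 0.13, or -0.12 with library size alone), with Tnnt3 at 1.14 and Tpm2 at 1.02 opposite Ckm at -1.14 and Acta1 at -1.09. Acta1 measured 419, 1021 and 763 CPM in input and 184, 520 and 351 CPM in IP. Its input level differed between samples more than its 3 pair values, which lay between -1.19 and -0.97. Neither Acta1 nor Ckm was called without the sample block (adjusted p = 0.0789 and 0.0621). Lipid genes of sebaceous gland and fat held 19 depleted and 9 enriched of 32 (median -0.30), with Soat1 at -1.002, Fasn at -0.91 and Plin2 at -0.87 opposite Plin4 at 1.34. Clustered protocadherin genes held 21 depleted and 17 enriched of 56, and their median of 0.63 became -0.39 over those with at least 1 CPM in input. Pcdhga1, Pcdhga2, Pcdhga6 and Pcdhgc5, which share their constant exons in this locus, measured from -0.59 to -0.55, so these are not separate observations.

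Within protein-coding genes, merged exon length went little with enrichment and exon structure more, while over all genes length differed most. Over all genes the longest decile by merged exon length (the bases covered by any listed exon) exceeded the shortest in median log2 by 0.87, against 0.57 by mean exon length and 0.20 by exon number. Within 16002 protein-coding genes the difference was 0.08, and the rank correlation across genes was 0.02, given as a description because genes are not independent replicates. The number of exons went the other way (rank correlation -0.24 over the same genes). Single-exon genes had a median of 0.57, with 318 of 617 enriched and 97 depleted, and genes of 2 to 3 exons 0.49. The medians that followed were 0.20 at 4 to 6 exons, 0.00 at 7 to 11, -0.05 at 12 to 19 and -0.12 at 20 or more, where 762 of 2607 were enriched and 1078 depleted.

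Among genes of 4 to 19 exons, the longer ones had the higher medians. With 7 to 11 exons the median was -0.13 for genes of up to 2891 merged exon bases, 0.03 for 2892 to 5277 bases and 0.18 for longer genes. With 4 to 6 exons the 3 medians were 0.05, 0.30 and 0.36. Mean exon length joins both and had the largest rank correlation of the measures compared (0.32, and 0.30 over 15593 genes without the Zfp and Zbtb families). The decile of genes with the shortest exons, at most 189 bases on average, was 18.4% enriched and 42.7% depleted (median -0.26). The decile with the longest exons, at least 1169 bases, was 58.3% enriched and 12.4% depleted (median 0.54). The medians of that last decile were 0.49, 0.58 and 0.51 in the 3 samples. The rank correlation with input level was -0.02, while the share called enriched went from 11.7% in the lowest decile of input level to 55.3% in the highest. The lists above differ in this measure too: the median gene of the ZBTB list had a mean exon length of 1133 bases, that of the Hox list 908, of the glycolysis list 300.9 and of the collagen list 141. Chromatin modifiers were enriched in 35 of 42 genes at a median of 28.5 exons, where the median gene had a mean exon length of 406 bases.

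**Figure D4:**
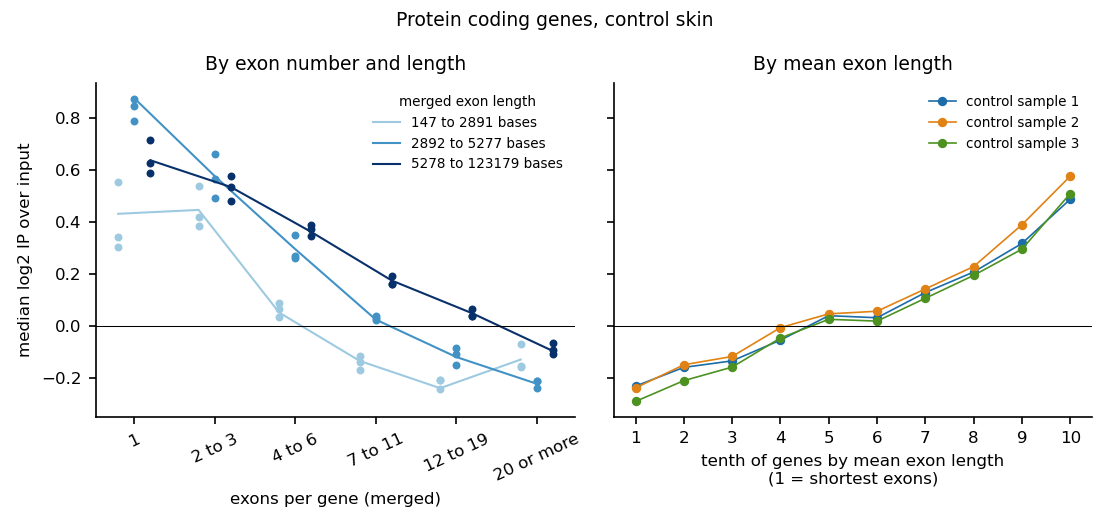
Median log2 IP over input of protein-coding genes in control skin. Left, by number of merged exons, split by merged exon length, with dots for the 3 samples and lines for the fit; right, by decile of mean exon length, in each sample. The median is lower at each higher exon number for genes of middle and long exon length, and the sample medians lie between -0.29 and -0.23 in the lowest and between 0.49 and 0.58 in the highest decile of mean exon length.

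The peaks that the deposited table lists for the control arm are given as a description. They were called from the same IP libraries as the gene ratios, so they give no independent test of those. The 18020 control-arm peaks lay in 9408 genes and covered a median of 210 exon bases. Their median log2 IP over input, computed on CPM plus 0.1, was 1.27 (1.18, 1.35 and 1.24 in the 3 samples), and 17532 had more CPM in IP than in input in all 3. A control-arm peak was present in 37.5% of genes tested. It was present in 77.7% of enriched genes, 22.2% of genes called in neither direction and 17.8% of depleted genes. Over genes with at least 5 CPM in input the 3 shares were 88.7%, 61.1% and 28.4%.

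In genes with at least 3 exons, last exons held 49.2% of peaks on 37% of exon bases, and first exons 10.6% of peaks on 7.4% of bases. Internal exons held 40.3% of peaks on 55.6% of bases. Within internal exons the density went with exon length, from 10.4 peaks per 100 kb in exons of up to 150 bases and 16.7 in those up to 300 bases to 35.1 in those up to 600 and 46.0 in those up to 1200 bases. It was 26.3 in longer ones. Exons of up to 150 bases made up 55.9% of the internal exons and 19.7% of their bases, and held 8.3% of the internal peaks. Each peak was counted to the exon holding most of its bases. A peak spanning several exons was therefore not counted to the shorter ones. The median log2 IP over input of internal peaks was 0.84 in these shortest exons and 1.28 in exons of over 600 and up to 1200 bases.

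**Figure D5:**
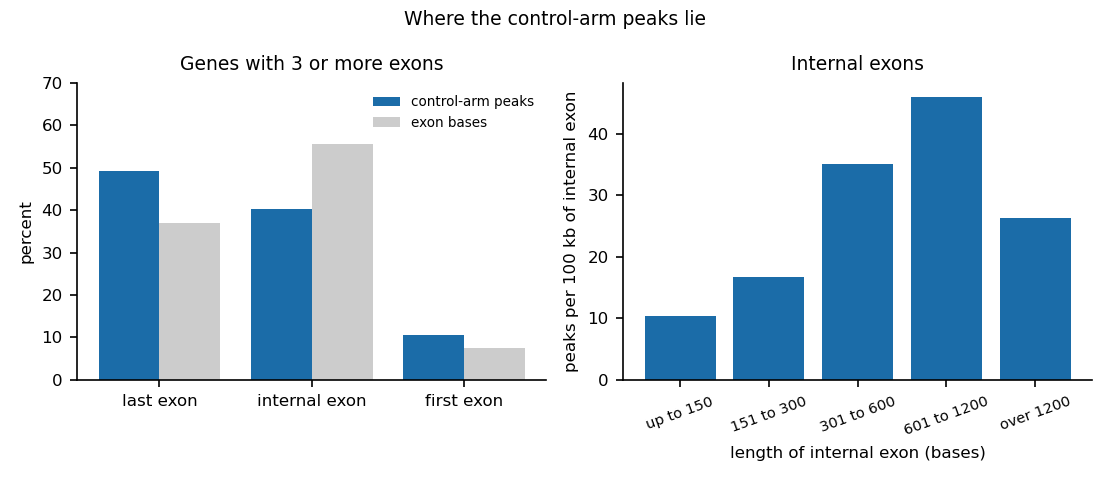
Left, share of control-arm peaks and of exon bases in last, internal and first exons of genes with at least 3 exons, in percent. Right, control-arm peaks per 100 kb of internal exon by exon length; the bar of exons over 600 and up to 1200 bases is the highest at 46.0 and that of the shortest exons the lowest at 10.4.

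A gene could be depleted as a whole and still hold a peak. There were 1858 control-arm peaks in genes called depleted. Col1a1 had 1 peak, of 120 bases in its last exon (chromosome 11, 94951605 to 94951724), with a log2 IP over input of 1.43, 1.62 and 1.46 in the 3 samples against -1.04 for the gene. Col1a2 had 2 peaks in its last exon at 1.18 and 1.27 against -1.10. The proteasome activator gene Psme4 had a first-exon peak (chromosome 11, 30771726 to 30771935) at 2.92 against -1.26. Fbn1 had 3 peaks in its last exon and 1 in its first, at 1.30 to 2.01, against -0.65. Mfap4 had 1 last-exon peak (chromosome 11, 61488661 to 61488780) at 1.61, with 1.48, 2.20 and 1.14 in the 3 samples, against -0.28. In Sec62 a last-exon peak of 567 bases (chromosome 3, 30818520 to 30819086) stood at 2.49, and an internal one at 1.40, beside 2.14 for the gene. Fut1 had its 3 peaks in the last exon, the strongest at 2.32.

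The first transcribed base was read because an m6A antibody also binds the related cap-adjacent base m6Am, which is made only where transcription starts with A. The sequences of 4 strongly enriched or depleted mRNAs show what was compared. Each runs from 10 bases before to 20 bases from the annotated start (RefSeq, GRCm38.p6), 5′ to 3′ on the gene's strand, with the first transcribed base in capitals.
Fut1: ctgagccttcAgtcagtttcaggaaggaag
Sec62: aggctttgggGacgagctgtgtttaatgga
Krtap6-1: actcaagaacAacctcaacaaccagaacca
Mgst3: ggggcggggcGgagtggggcgggtcctgcg
An A stands at the start of the enriched Fut1 (chr7:45617596-45617625, plus strand, log2 2.23) and of the depleted keratin-associated gene Krtap6-1 (chr16:89031689-89031718, plus strand, -2.30). The exons counted for Fut1 begin upstream of the RefSeq start shown, so the annotations differ there. A G stands at the start of the enriched Sec62 (chr3:30792866-30792895, plus strand, 2.14) and of the depleted glutathione transferase gene Mgst3 (chr1:167393822-167393851, minus strand, -2.22). Krtap6-1 and Mgst3 were chosen after their values were seen, and the 4 shown hold A and G in each direction. Also read were S1pr5, which starts with A (log2 2.19), and Ccdc107, which starts with G (-2.52). Over 9879 tested protein-coding genes with a single annotated start, the median log2 was 0.09 for the 3063 that start with A, 0.08 for C, 0.04 for G and 0.04 for T. The enriched shares were 36.3%, 36.9%, 37.3% and 33.9%. With GGAC in the first 50 transcribed bases, read on the gene's strand only, the median was 0.04 over 2026 genes (20.5% of these starts), and 0.06 over the others. The medians for A were 0.08, 0.10 and 0.06 in the 3 samples, each above those for G (0.05, 0.06 and 0.03), and these small differences were not tested. Annotated starts need not be those used in skin.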

How the data were processed

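Gene counts were deposited by the authors as raw read counts for 12 libraries; alignment to GRCm38 used STAR 2.5.3a, per the submitters' processing notes, and libraries came from a stranded mRNA kit, per the labels' protocols. Neither source names the counter, annotation release, use of strand, duplicate handling or peak caller. Between 79.5% and 83.6% of counts from 1 to 20 were even. The peak counts were deposited by the authors as read counts per peak, with 18020 peaks listed for the control arm, and peak starts count from 0. Genes were matched to RefSeq's GRCm38.p6 table: 34482 by symbol, 1022 by an older symbol and 13988 not.

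Counts were fitted with edgeR 4.0.16 (TMM, filterByExpr, quasi-likelihood test, R 4.3.3) over all 12 libraries with the sample as a block, and called at an adjusted p below 0.05; the script was tested on simulated data. Same-numbered IP and input libraries deviated together from their group means (r = 0.61, 0.77 and 0.87 over 11931 genes). Values for other numbers were -0.70 to -0.17, but deviations cancel within a group, which by construction pulls these down. Replicate pairs differed by 50.2 to 167 times the counting variance. Per-library log2 values used a prior count of 2, and genes with 5 CPM in control input could be named among the largest.

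Named genes were the 10 largest per direction (called, same sign in 3 pairs, no Gm or Rik names, at most 3 of a name stem), 5 lncRNAs per direction, up to 4 members per list by p, the 2 title genes and 6 that differed most in UV. A few genes that this rule names are not reported here. Members and lists were chosen with earlier results of these data known. DESeq2 1.42.0, other scalings, filters and left-out samples were alternatives.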

Additional observations from a re-analysis of the deposited data

Results flagged for a closer look

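The enrichment of 6 genes differed most between UV and control among the 399 that passed the test of that difference. The change of log2 IP over input, UV minus control, was 6.52 for Gm22682, 4.64 for Gm25794, 4.56 for Gm22946, 4.52 for Mir6236, 4.44 for Gm44848 and -4.41 for Gm12778. The adjusted p of these differences ran from 0.000381 for Mir6236 to 0.0364 for Gm22682. All 6 measured under 5 CPM in control input, and Mir6236 had pair values of -1.59, -2.51 and -3.92 in control. With 3 samples a group, single samples were not screened as outliers.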

How the results depend on the processing

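The counts of 7516 enriched and 7782 depleted genes stayed within 1.5 times under every alternative except the 2-fold minimum (2071 and 2865). Without the replicate block the counts were 6144 and 6451, of which 6102 and 6375 were shared with the blocked fit, and 14 of 170 named genes were no longer called, mostly hair, keratin and muscle genes and Mfap4. Krt1 and Tchh also missed the threshold in DESeq2 (adjusted p = 0.062 and 0.07). Without 1 control sample the counts ran from 6876 to 7080 and from 6808 to 7417. By exon length, the difference in median log2 between the end deciles was 0.87 over all genes, 0.767 at 1 CPM or more in input and 0.075 over protein-coding genes. By mean exon length it was 0.57 and 0.80 over protein-coding genes. Between most and fewest exons it was 0.20 over all genes, 0.22 at 1 CPM or more and -0.68 over protein-coding genes. A control-arm peak was present in 37.5% of genes tested, 48.2% at 1 CPM or more and 54.2% of protein-coding genes. Of 35 list medians, 6 close to 0 changed sign with library size alone and 6 under another setting, most near 0; protocadherins went from 0.63 to -0.39. Depth limits the low genes: calls were fewer below 5 CPM.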
